A study of Mus musculus with 99 samples.

Results

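The nuclear hormone receptors are a family of transcription factors, and 46 of their genes were described here out of the 55291 gene symbols of the count table. They were taken by name and comprise thyroid hormone, retinoid, lipid-sensing, clock, steroid and orphan receptors. All 46 names were found. The counts came from 99 single cochlear cells of C57BL/6 mice, picked by hand for tdTomato fluorescence and sequenced as full-length cDNA. One group was 32 outer hair cells (OHCs) of wild-type mice at postnatal day 30, whose genotype was Slc26a5-CreER/+; Ai9/+. The other was 67 cells at postnatal day 42 with the genotype Slc26a5-CreER/+; Rosa26Tbx2/+, in which OHCs express ectopic Tbx2 and which the labels call cIHCs. Slc26a5-CreER is an inducible Cre driven from the gene of the OHC motor protein prestin, and Ai9 is a tdTomato reporter. Both groups carry the Cre, while genotype and age differ together between them and cannot be told apart.

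A nuclear receptor binds short DNA elements through its zinc fingers. Many members change their effect on target genes when a small lipophilic ligand, such as thyroid hormone, retinoic acid or a steroid, enters the ligand-binding domain. Several act in pairs with a retinoid X receptor, and without ligand some recruit corepressor complexes that hold Ncor1 and the deacetylase Hdac3. In the cochlea the family is known above all through Thrb, the thyroid hormone receptor required for the development of hearing. The REV-ERB receptors (Nr1d1, Nr1d2) and the ROR receptors (Rora, Rorb) compete for the same elements in genes of the circadian clock.

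The labels name no animal and each deposited sample is 1 cell, so each group counts as 1 sample. Cells of a group were summed, and levels are pooled CPM, a gene's counts scaled to a fixed library total, with exact Poisson 95% intervals. Differences are log2 ratios of pooled CPM with the cIHCs over the OHCs, and no test or p-value was made. Intervals and floors cover counting error only, because reads amplified without molecular identifiers do not each stand for a molecule, and they leave out the spread between animals. Intervals on shares of cells treat the cells of a group as independent, although animals are not named. A receptor was counted as higher or lower where its ratio passed 2-fold and its level reached 10 CPM in the higher group.

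The OHCs had total counts of 5656512 to 9287413 and the cIHCs of 4677682 to 13792672, and the median number of genes with reads was 6068.5 and 8546. A list of 9 OHC genes summed to 26807 to 73575 CPM per OHC and 248 to 5374 CPM per cIHC, and a list of 10 inner hair cell genes to 1205 to 4732 and 4325 to 20792 CPM. Xist reached 10 CPM in 4 OHCs and 55 cIHCs, and Y-linked genes in 24 OHCs and 12 cIHCs, so the sex of the source animals also differed. Below, cells with Xist reads or with Y-linked reads are those that reached this level. Genes named as neuronal markers (8 genes, 5 of them higher in cIHCs) summed to 0 to 2639.97 CPM per OHC and 165 to 26839 CPM per cIHC, with Prph and Thy1 at 0 in both groups. Most of that sum was 1 gene, Calb1. With the highest cell of each gene left out, Calb1 held 8013 of the 8391 CPM pooled in cIHCs. In OHCs it then held 326 of 403 CPM. Supporting cell genes (10) summed to 0 to 968 and 0 to 899 CPM, and macrophage and blood genes (9) to 0 to 67.002 and 0 to 337 CPM, of which C1qb had no OHC read and 48.2 CPM in pooled cIHCs, while C1qa, C1qc, Tyrobp and Lyz2 were at 0 in the cIHCs. The part of these differences in the results was not tested.

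Promoters of 3 receptors that were higher in cIHCs are shown because they hold letters of a T-box or a nuclear receptor element. Each run comes from the 250 bases before a RefSeq start site on the GRCm38.p6 build, which is mm10. It is read 5′ to 3′ on the gene's strand and stopped before any exon that GENCODE M21 annotates on that strand. All 3 start sites lie inside the annotated span of their gene. Capitals mark GGTGTGA, the T-box letters, in Rara, and AGGTCA, the core letters bound by many nuclear receptors, in Thrb and, as its reverse complement, in Nr1h4.
Rara, chr11:98937446-98937695, plus strand: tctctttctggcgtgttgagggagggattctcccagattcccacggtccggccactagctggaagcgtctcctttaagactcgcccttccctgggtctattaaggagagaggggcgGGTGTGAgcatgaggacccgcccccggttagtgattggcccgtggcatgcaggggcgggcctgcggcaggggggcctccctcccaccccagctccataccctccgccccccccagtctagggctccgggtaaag
Thrb, chr14:17660710-17660891, plus strand: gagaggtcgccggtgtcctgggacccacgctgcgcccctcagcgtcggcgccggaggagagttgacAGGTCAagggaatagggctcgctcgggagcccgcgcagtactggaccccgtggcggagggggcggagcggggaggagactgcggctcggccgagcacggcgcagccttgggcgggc
Nr1h4, chr10:89506659-89506908, minus strand: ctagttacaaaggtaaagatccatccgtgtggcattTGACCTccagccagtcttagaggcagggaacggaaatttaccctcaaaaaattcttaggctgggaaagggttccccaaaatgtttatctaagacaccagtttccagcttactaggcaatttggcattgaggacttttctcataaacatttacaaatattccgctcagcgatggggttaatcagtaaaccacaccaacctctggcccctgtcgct
The marked letters begin 134, 184 and 214 bases before the start site. Windows of 300 bases, 250 before and 50 after a start site, were found for 42 of the 46 receptors, which include all 15 counted as higher or lower. On either strand, GGTGTGA occurred in 7 of the receptors' 63 windows and in 3.98% of all 32851 windows. The 7 windows belong to 5 receptors, and of these Rara alone was counted as higher or lower. The Rara windows from 98937446 and from 98937468 overlap and hold the same GGTGTGA, so that site is counted in both. AGGTCA occurred in 12 of the 63 windows and in 16.3% of all windows, the E-box CACGTG in 6 and 7.15%, and TGACGT, part of the cyclic AMP element, in 5 and 7.51%. TAGGTCA, which contains AGGTCA and is part of the element of ROR and REV-ERB receptors, occurred in 0 of the 63 windows and in 2.61% of all windows. A match of letters is a description and not a binding site.

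Reads were found for 37 of the 46 receptors, and 48.4% of all gene symbols had reads. Of the 37, 23 reached 10 CPM in 1 or both groups and 14 stayed below. Of the 23 receptors, 10 were higher in cIHCs, 5 were lower and 8 were neither. Over all 10041 genes at that level, 26.3% were higher and 14.3% were lower, 40.5% in all. The median log2 ratio was 0.34 for the receptors and 0.25 for all these genes, so the medians lay close together. TMM scaling, which moved the all-gene median by -0.19, changed the split of all genes from 2638 higher and 1432 lower to 2175 and 1800, and left the same 10 and 5 receptors. Relative to the all-gene median, Rora was at 0.95 and 9 receptors were higher. The minimum admits a gene through the group where it is high, so these counts describe the receptors and support nothing further. A median of 13 receptors (range 7 to 18) had reads in an OHC and 17 (12 to 23) in a cIHC, and the pooled levels of the 46 summed to 1330 CPM and 1807 CPM.

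**Figure D1:**
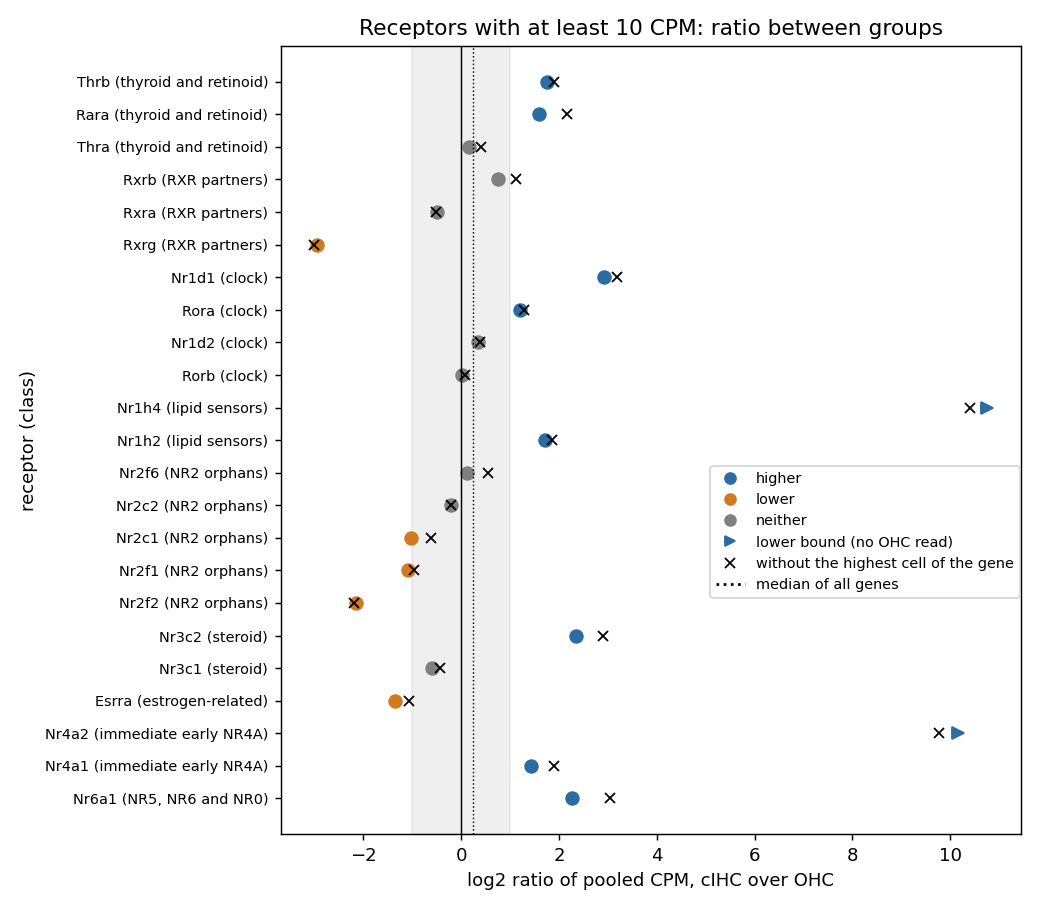
Log2 ratio of pooled CPM, cIHC over OHC, for the 23 receptors with at least 10 CPM, by class; the grey band spans ratios within 2-fold, triangles are lower bounds and crosses are the ratio without the highest cell of the gene in each group. The 10 higher receptors lie to the right of the band and the 5 lower ones to its left, and the crosses of Nr2c1 and Nr2f1 lie inside it.

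The order of the receptors by level differed between the groups. Levels of different genes are compared here as CPM per kb of merged exons in GENCODE M21. In OHCs the highest was Nr2f1 at 28.9 CPM per kb, followed by Nr2f2 at 22.8, Rxrg at 21.3, Rorb at 20.3 and Rora at 18.4. In cIHCs the order began with Nr1d1 at 48.9 CPM per kb, Nr1h2 at 42.8 and Rora at 42.3, followed by Nr1d2 at 20.9 and Rorb at 20.5. Neighbours in these orders were not tested against each other. Nr2f1 was at 13.6 and Nr2f2 at 5.11 CPM per kb in cIHCs, and Nr1d1 was at 6.46 in OHCs.

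Among the thyroid hormone and retinoic acid receptors, Thrb and Rara were higher in cIHCs and Thra was neither. Thrb had 0 to 191 CPM (median 0.274) in single OHCs and 0 to 650.03 CPM (median 51.5) in single cIHCs. Most cIHCs lay above the median OHC, but only 4 of the 67 exceeded the highest OHC, so the groups overlapped. Pooled Thrb was 25.1 CPM (24.4 to 25.7) against 84.8 CPM (84.01 to 85.6), or 1.76 (1.72 to 1.80) as a log2 ratio. Among cells with Xist reads, where only 4 OHCs remain, its ratio turned to -0.30. With the 24 OHCs and 12 cIHCs that had Y-linked reads, the Thrb ratio was 2.09. Thra, the second thyroid hormone receptor, had 39.3 and 44.2 CPM pooled, and its ratio of 0.17 changed sign under TMM. Rara, the retinoic acid receptor alpha, had 0 to 61.5 CPM (median 0) in OHCs and 0 to 93.2 CPM (median 3.001) in cIHCs. Reads of Rara were present in 9 of 32 OHCs and 44 of 67 cIHCs, and the ranges overlapped. Its pooled 5.11 CPM (4.83 to 5.41) and 15.3 CPM (14.98 to 15.6) gave 1.58 (1.495 to 1.67) on the log2 scale, or 2.16 without the top cell of each group. Rarb had no OHC read and 3.32 CPM in 11 cIHCs, but 34.1% of its exon bases are shared with Top2b on the other strand. Rarg had 1.59 and 0.562 CPM in 2 OHCs and 4 cIHCs. Vdr, the vitamin D receptor, had no read in any cell.

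The retinoid X receptors, the usual partners of the receptors above, differed from each other. Rxrg was lower in cIHCs, with 0 to 424 CPM (median 0) in OHCs and 0 to 109 CPM (median 0) in cIHCs. Its reads came from 14 of 32 OHCs and 10 of 67 cIHCs, and 6 OHCs exceeded every cIHC. Pooled Rxrg was 48.9 CPM (48.05 to 49.8) against 6.36 CPM (6.15 to 6.57), which is -2.94 (-2.999 to -2.89) on the log2 scale. With the 4 OHCs and 55 cIHCs that had Xist reads, that ratio turned to 2.47. With the 24 OHCs and 12 cIHCs that had Y-linked reads, Rxrg stayed lower in cIHCs. Rxra (46.6 and 33.04 CPM, ratio -0.50) and Rxrb (23.2 and 39.1 CPM, ratio 0.76) stayed within 2-fold. The Rxrb ratio was 1.12 when the top cell of each group was left out.

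Of the 4 clock receptors, Nr1d1 and Rora were higher in cIHCs, and their paralogues Nr1d2 and Rorb were neither. The time of day of collection is not among the sample details used here. Its part in these values was not tested and cannot be told apart from genotype and age. Nr1d1 encodes REV-ERB alpha, a repressor of clock genes. It had 0 to 159.5 CPM (median 0.9298) in OHCs and 0 to 776 CPM (median 113) in cIHCs. Of the 67 cIHCs, 26 lay above the highest OHC, and the cIHC was the higher cell in 88.4% of all OHC and cIHC pairs. The pooled values were 19.9 CPM (19.3 to 20.5) and 150.4 CPM (149 to 151), or 2.92 (2.88 to 2.96) on the log2 scale. On chromosome 11 the 3′ ends of Nr1d1 and Thra overlap on opposite strands over 263 exon bases, 8.55% of the Nr1d1 exons, and the sources do not say whether counting used strand, so reads there cannot be assigned. Nr1d2, which encodes REV-ERB beta, had 0 to 312 CPM (median 61.8) in OHCs and 0 to 443 CPM (median 94.8) in cIHCs. These ranges largely overlapped, and its pooled ratio was 0.34 (0.32 to 0.36).

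Rora, the ROR alpha receptor, had reads in 30 of 32 OHCs and 67 of 67 cIHCs. It had 0 to 713 CPM (median 225) in OHCs and 59.02 to 1579 CPM (median 525) in cIHCs. The ranges overlapped, but 19 cIHCs exceeded every OHC. Pooled Rora was 240.4 CPM (238 to 242) in OHCs and 553 CPM (551 to 555) in cIHCs, a ratio of 1.20 (1.19 to 1.22) on the log2 scale. Rorb, the ROR beta receptor, had 0 to 803 CPM (median 195) in OHCs and 8.65 to 612 CPM (median 200.03) in cIHCs, and these ranges overlapped almost fully. Pooled Rorb was 225 CPM (223 to 227) and 227 CPM (226 to 228), and its ratio of 0.0104 changed sign under TMM. Among cells with Xist reads the Rorb ratio was 2.72, again against 4 OHCs, and among cells with Y-linked reads it was 0.17.

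**Figure D2:**
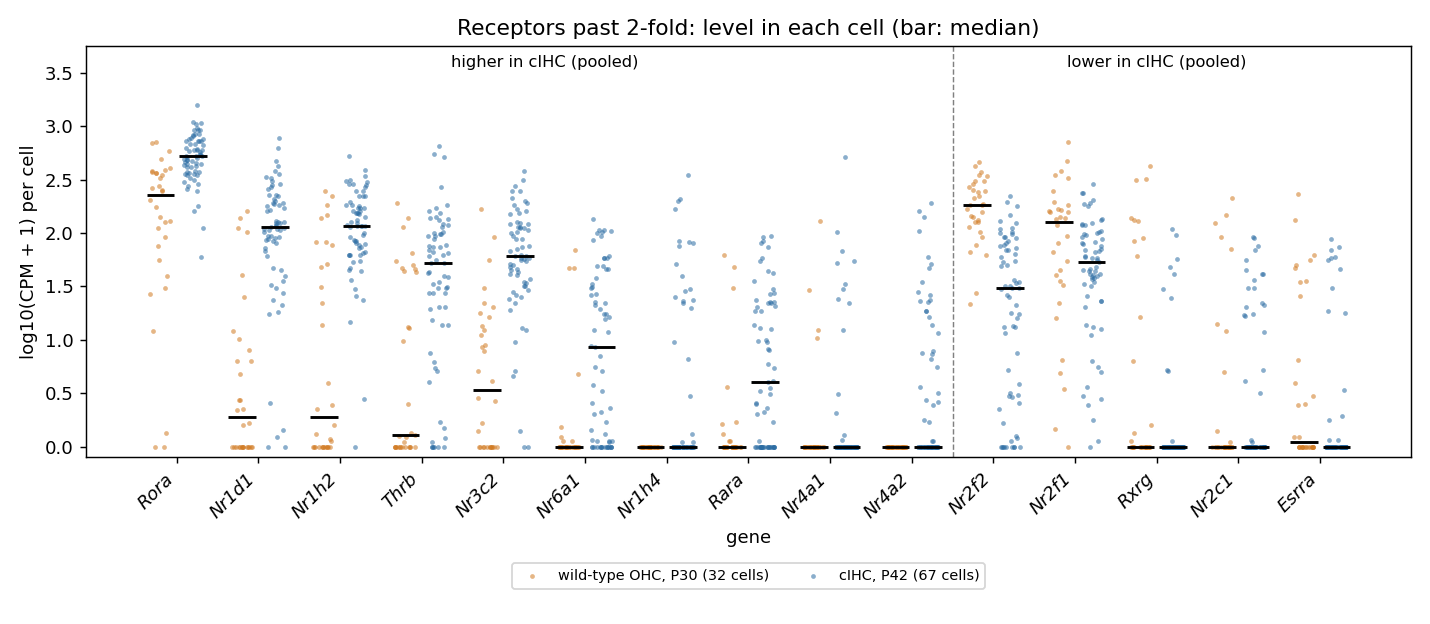
Level of the 15 receptors counted as higher or lower in each of the 32 OHCs and 67 cIHCs, as log10(CPM + 1); each point is a cell and each bar a median. The cIHC medians of Rora, Nr1d1, Nr1h2, Thrb and Nr3c2 stand above the OHC medians, while for Nr1h4, Nr4a1, Nr4a2, Rxrg and Nr2c1 both medians are 0.

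Of the 10 lipid-sensing receptors, Nr1h2 and Nr1h4 were higher in cIHCs, and the other 8 stayed below 10 CPM. Nr1h2 encodes LXR beta, a receptor for oxysterols. It had 0 to 244 CPM (median 0.938) in OHCs and 0 to 520.2 CPM (median 115) in cIHCs, and the cIHC was the higher cell in 83.6% of pairs. Pooled Nr1h2 was 43.8 CPM (42.9 to 44.6) and 144 CPM (143 to 145), or 1.71 (1.68 to 1.74) on the log2 scale. Nr1h4 encodes FXR, the bile acid receptor. None of the 32 OHCs had an Nr1h4 read, which leaves room for reads in 9.38% of OHCs by the limit of 3 cells, or 10.9% by the exact Clopper-Pearson 95% bound. Reads were present in 23 of 67 cIHCs, or 34.3% (exact Clopper-Pearson 95% interval 23.2 to 46.9), with a highest value of 347 CPM. Pooled Nr1h4 in cIHCs was 21.4 CPM (21.01 to 21.8), so its log2 ratio was at least 10.75 against a floor of 3 counts over the OHC group. Among the 10041 genes, 2.28% had no OHC read and 10 CPM or more in cIHCs, as Nr1h4 and Nr4a2 did. On chromosome 10, Nr1h4 (89454234 to 89533585, minus strand) lies between Gas2l3, 10.3 kb away, and Slc17a8, the vesicular glutamate transporter gene of inner hair cells, 40.4 kb away, all on the same strand. Gas2l3 had just 5 OHC counts and 24.03 CPM in cIHCs, and Slc17a8 had 69.2 and 1179 CPM. Across the 67 cIHCs the Spearman correlation of Nr1h4 was 0.18 with Gas2l3 and -0.0053 with Slc17a8, a description over cells that share their source.

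The remaining lipid sensors were near or at 0. Ppard had 3.07 and 5.12 CPM, with reads in 6 of 32 OHCs and 29 of 67 cIHCs. Nr1h3, which encodes LXR alpha, had no OHC read and 3.04 CPM in 3 cIHCs, and Ppara had no OHC read and 0.757 CPM in 4 cIHCs. Hnf4a had 3 OHC counts and 0.667 CPM in 2 cIHCs, a log2 ratio with counting interval of 5.75 (4.19 to 8.03). Nr1i3 had 16 counts in cIHCs and shares 74.9% of its exon bases with Tomm40l. Pparg, Nr1i2 and Hnf4g had no read.

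Of the 7 orphan receptors of the NR2C, NR2E and NR2F kinds, 5 reached 10 CPM. Of these, 3 were lower and 0 higher, beside 14.3% and 26.3% of all genes, and no test was made. Nr2f2, which encodes COUP-TFII, had 20.6 to 458 CPM (median 181) in OHCs and 0 to 222 CPM (median 29.4) in cIHCs. The ranges overlapped, but 13 OHCs exceeded every cIHC, and the cIHC was the higher cell in 9.002% of pairs. Pooled Nr2f2 was 196 CPM (195 to 198) against 44.1 CPM (43.6 to 44.7), which is -2.15 (-2.18 to -2.13) on the log2 scale. B130024G19Rik, an antisense gene that shares 7.46% of the Nr2f2 exon bases, had 18.5 and 2.096 CPM. Nr2f1, which encodes COUP-TFI, had 0 to 716 CPM (median 125) in OHCs and 0 to 286 CPM (median 52.7) in cIHCs. Here 5 OHCs exceeded the highest cIHC, and in 35.7% of pairs the cIHC was the higher cell. Pooled Nr2f1 was 147 CPM (146 to 149) and 69.3 CPM (68.6 to 70.03), or -1.09 (-1.11 to -1.07) on the log2 scale. That ratio became -0.97 without the top cells and 0.0092 among cells with Xist reads, where only 4 OHCs remain. With the 24 OHCs and 12 cIHCs that had Y-linked reads, the Nr2f1 ratio was -1.54.

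Nr2c1, the testicular receptor TR2, had 0 to 211 CPM (median 0) in OHCs and 0 to 89.7 CPM (median 0) in cIHCs. Its pooled 21.6 CPM (21.005 to 22.2) and 10.6 CPM (10.3 to 10.9) gave -1.03 (-1.08 to -0.97) on the log2 scale. One OHC contributed 35.1% of the OHC reads, and without the top cells the ratio was -0.62, within 2-fold. Nr2c2, the related TR4, had 45.4 and 38.99 CPM and Nr2f6 had 12.01 and 12.98 CPM, both within 2-fold. Both are uncertain, since 30.7% of the Nr2c2 exon bases are shared with Mrps25 and 54.4% of those of Nr2f6 with Ocel1 on the other strand. Nr2e1 had 2 counts in 1 OHC, and Nr2e3 had none.

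Of the 5 steroid receptors, Nr3c2 was higher in cIHCs and Nr3c1 was neither. Nr3c2 encodes the mineralocorticoid receptor, which binds aldosterone and corticosterone. It had 0 to 167 CPM (median 2.47) in OHCs and 0 to 379 CPM (median 60.1) in cIHCs. The cIHC was the higher cell in 87.97% of pairs, and 9 cIHCs lay above the highest OHC. Pooled Nr3c2 was 16.5 CPM (16.03 to 17.1) and 84.4 CPM (83.7 to 85.2), or 2.35 (2.31 to 2.40) on the log2 scale, with 38.8% of the OHC reads in 1 cell. Nr3c1, the glucocorticoid receptor, had 39.1 CPM (38.3 to 39.9) and 25.9 CPM (25.5 to 26.3), a ratio of -0.59 (-0.63 to -0.56). That ratio was 4.09 among cells with Xist reads and -3.04 among cells with Y-linked reads. Esr2, an estrogen receptor, had 5.13 CPM from 1 OHC and 2.92 CPM from 7 cIHCs, so that no OHC read remained without the top cells. Esr1, the other estrogen receptor, had 2 counts in OHCs and 335 in cIHCs (log2 ratio 6.22, interval 4.36 to 9.27), and Pgr, the progesterone receptor, had none.

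The estrogen-related receptors are orphan receptors known for genes of energy metabolism. Esrra was lower in cIHCs, with 0 to 230.01 CPM (median 0.111) in OHCs and 0 to 86.5 CPM (median 0) in cIHCs. Reads were found in 16 of 32 OHCs and 15 of 67 cIHCs. Pooled Esrra was 20.8 CPM (20.3 to 21.4) against 8.18 CPM (7.94 to 8.42), which is -1.35 (-1.41 to -1.29) on the log2 scale. Esrrg had 1 OHC count and 6.65 CPM in 10 cIHCs, a log2 ratio with counting interval of 10.65 (8.17 to 15.96), and Esrrb had none.

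The NR4A receptors are counted among the immediate early genes, which respond quickly to stimulation. Nr4a2 had no read in any OHC and reads in 32 of 67 cIHCs, or 47.8% (exact Clopper-Pearson 95% interval 35.4 to 60.3), with a highest value of 189.7 CPM. Pooled Nr4a2 in cIHCs was 14.2 CPM (13.9 to 14.5), and its log2 ratio was at least 10.16. Among cells with Y-linked reads the bound was 9.16, but Nr4a2 no longer reached 10 CPM and was not counted as higher. Nr4a1 had 5.46 and 14.6 CPM pooled, a ratio of 1.42 (1.33 to 1.504), but in 4 OHCs and 14 cIHCs only. One cIHC contributed 58.6% of its cIHC reads, and without the top cells the pooled levels were 1.64 and 6.14 CPM, below the minimum. Among cells with Y-linked reads the Nr4a1 ratio turned to -1.40. Nr4a3 had 3.59 and 0.415 CPM, with 99.5% and 99.6% of the reads in 1 cell of each group. Of 8 other immediate early genes, 4 were higher in cIHCs and 2 lower, beside 26.3% and 14.3% of all genes. Their sum per cell was 0.467 to 5376 CPM in OHCs and 294 to 5867 CPM in cIHCs. Their part in the NR4A values was not tested.

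Nr6a1 encodes the germ cell nuclear factor, a repressor. It had 0 to 67.6 CPM (median 0) in OHCs and 0 to 133 CPM (median 7.52) in cIHCs. Reads were present in 8 of 32 OHCs and 51 of 67 cIHCs, and 8 cIHCs lay above the highest OHC. Pooled Nr6a1 was 5.16 CPM (4.88 to 5.45) and 24.6 CPM (24.2 to 25.1), or 2.26 (2.17 to 2.34) on the log2 scale and 3.04 without the top cells. Nr5a1, next to it on chromosome 2, had 1 OHC count and 3.16 CPM in 4 cIHCs, a log2 ratio with interval of 9.58 (7.10 to 14.88). Nr0b2 had 61 counts in 1 cIHC, and Nr5a2 and Nr0b1 had no read.

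At equal pooled level, genes had reads in fewer OHCs than cIHCs, which bears on every share of cells given here. Cells were thinned to 5770000 reads each, leaving 29 OHCs and 66 cIHCs. For 1303 genes of 10 to 100 CPM with ratios within 0.25 on the log2 scale, reads were then present in 48.9% of the OHCs and 70.01% of the cIHCs on average. Rara had reads in 24.1% of OHCs and 65.2% of cIHCs (unthinned 28.1% and 65.7%), Nr6a1 in 24.1% of OHCs and 72.7% of cIHCs (unthinned 25% and 76.1%), and Nr1d1 in 55.2% of OHCs and 96.97% of cIHCs (unthinned 56.2% and 97.01%). The lower receptors Esrra, with 55.2% of OHCs and 19.7% of cIHCs (unthinned 50% and 22.4%), and Rxrg, with 37.9% of OHCs and 15.2% of cIHCs (unthinned 43.8% and 14.9%), ran the other way. Nr2c1 had reads in 34.5% of OHCs and 34.8% of cIHCs (unthinned 31.2% and 34.3%), although its pooled level was lower in cIHCs.

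**Figure D3:**
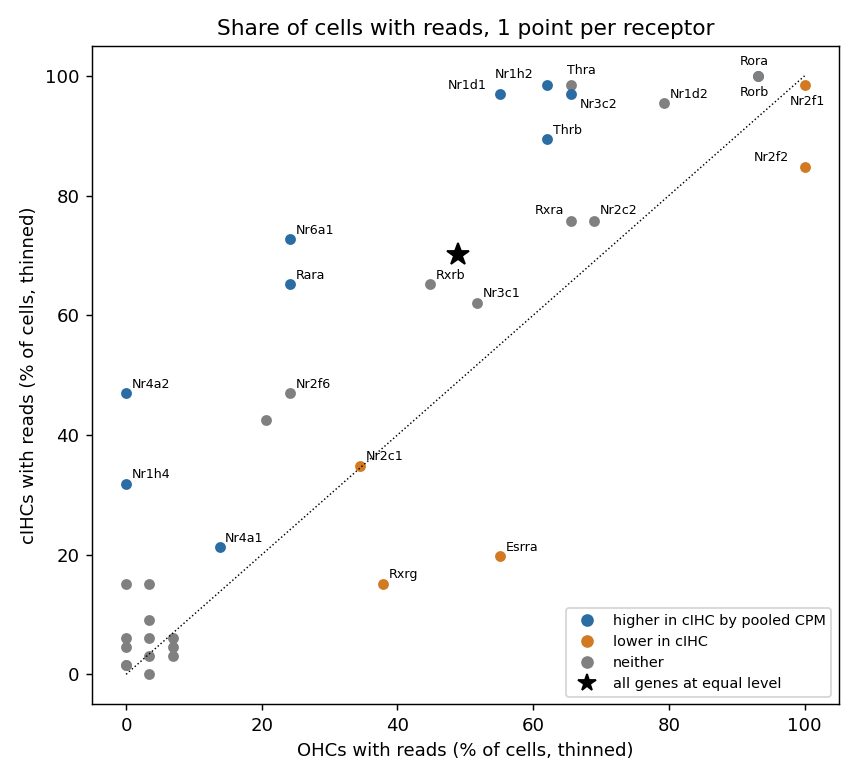
Share of thinned cells with reads in OHCs (x axis) and cIHCs (y axis), both in percent, 1 point per receptor with reads; receptors with at least 10 CPM are named, Rora and Rorb share a point, and the star is the mean of genes at equal level in both groups. Esrra, Rxrg, Nr2f1 and Nr2f2 are the named receptors under the diagonal, and Nr4a2 and Nr1h4 lie on the axis of no OHC reads.

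Receptor levels showed weak correlations from cell to cell. Over the 13 receptors with reads in at least 75% of cIHCs, Spearman correlations of log2(CPM + 1) across the 67 cells ran from -0.26 to 0.24 in 78 pairs. Over the 5 such receptors in OHCs they ran from -0.30 to 0.35 in 10 pairs. With the 7 clock genes so detected in cIHCs, Nr1d1 had values of 0.30 (Cry2), 0.29 (Dbp), 0.26 (Per1), 0.20 (Per3), 0.080 (Tef), -0.097 (Clock) and -0.18 (Arntl). These values describe cells that share their source, and weak values in sparse counts are no finding.

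Of 15 other clock genes, 11 reached 10 CPM, of which 4 were higher in cIHCs, 1 lower and 6 neither, with a median log2 ratio of 0.71. Among all 10041 genes at that level, 26.3% were higher and 14.3% lower, with a median of 0.25. The list was not compared with them by a test. Dbp, a transcription factor of the clock's output, had 0 to 156 CPM (median 0) in OHCs and 0 to 433 CPM (median 102) in cIHCs. Its pooled 16.4 and 121 CPM gave 2.88 (2.84 to 2.93) on the log2 scale, but Dbp shares 18.01% of its exon bases with Sphk2 on the other strand. Bhlhe40, a repressor of the clock, had 2 OHC counts and 53.5 CPM in cIHCs (log2 ratio 12.66, interval 10.81 to 15.71), or 13.54 without the top cells. Its paralogue Bhlhe41 was lower, at 53.9 and 6.07 CPM (log2 ratio -3.15, interval -3.20 to -3.09). Cry1, another repressor, had 5.39 and 16.5 CPM, with 99.003% of the OHC reads in 1 cell, and its ratio of 1.62 was 8.08 without the top cells. Arntl and Clock, the activators of the clock, had ratios of 0.11 and 0.57. Under TMM 3 of the clock genes were higher. The part of the time of day of collection in these values was not tested.

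Among the coregulators, 1 of the 10 coactivators and 4 of the 9 corepressor genes at 10 CPM or more passed 2-fold, beside 40.5% of all genes, and the lists were not compared by a test. Of 12 coactivators, 10 reached 10 CPM and only Ncoa7 passed 2-fold, at 26.3 and 77.2 CPM, with a median ratio of -0.20 over the 10. Of 10 corepressor genes, 9 reached 10 CPM, of which 3 were higher and 1 lower, with a median of 0.71. Hdac3, the deacetylase of the corepressor complex, had 0 to 378 CPM (median 0.849) in OHCs and 105 to 1246 CPM (median 577) in cIHCs. Reads were present in 18 of 32 OHCs and 67 of 67 cIHCs, and the cIHC was the higher cell in 98.1% of pairs. Pooled Hdac3 was 59.6 and 631 CPM, or 3.41 (3.38 to 3.43) on the log2 scale. Ncor1, its scaffold, had 422 and 257 CPM, a ratio of -0.71. Gps2 and Sin3a, at 1.22 and 1.30, were higher, with 73.8% of the Sin3a OHC reads in 1 cell and a ratio of 3.01 without the top cells. Lcor was lower at -1.09, which became -0.73 without the top cells. That setting gave 5 corepressor genes higher and 0 lower, beside 34.96% and 10.86% of all genes.

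**Figure D4:**
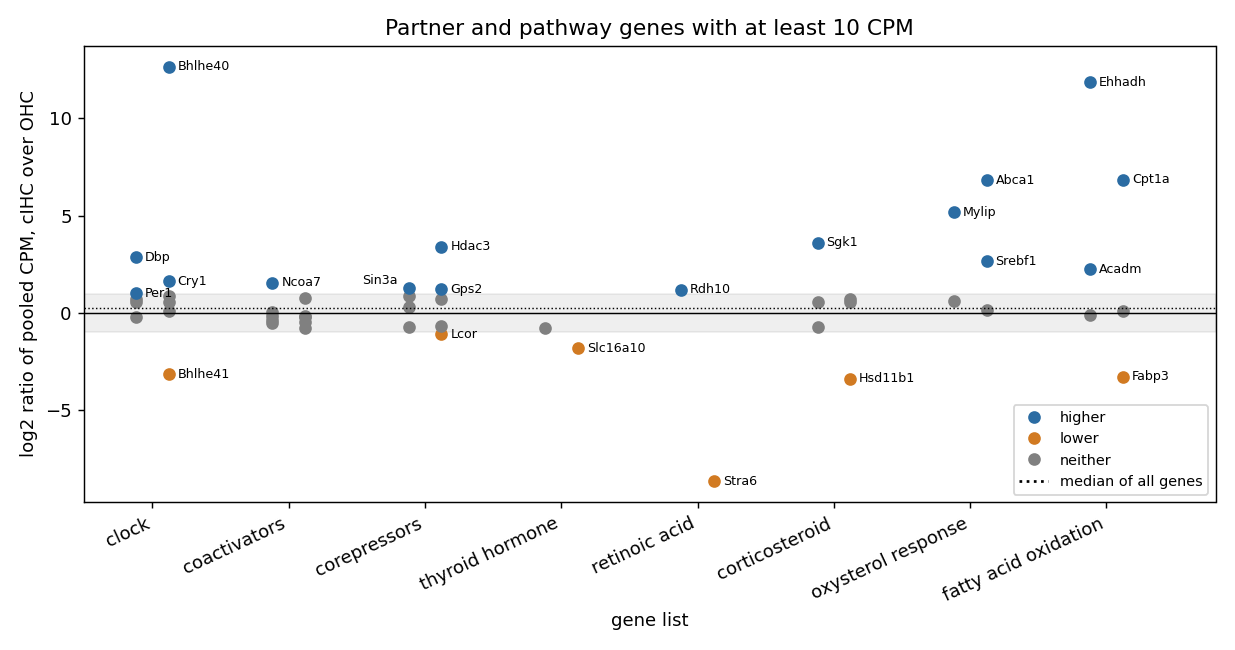
Log2 ratio of pooled CPM, cIHC over OHC, for genes of 8 lists with at least 10 CPM; genes past 2-fold are named and the dotted line is the all-gene median. The oxysterol genes Abca1, Mylip and Srebf1 lie above the grey band of 2-fold, and the coactivators lie within it except Ncoa7.

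Most genes that make, carry or break down thyroid hormone and retinoic acid were below 10 CPM. Of 9 thyroid hormone genes only Klf9 and Slc16a10 reached that level. Klf9, a response gene, had 169 and 101 CPM (log2 ratio -0.75), and Slc16a10, a transporter of thyroid hormone and aromatic amino acids, was lower at 15.7 and 4.45 CPM (log2 ratio -1.82). Of 13 retinoic acid genes only 2 reached it. The retinol dehydrogenase gene Rdh10 was higher at 20.1 and 46.3 CPM (log2 ratio 1.20), and the retinol transporter gene Stra6 was lower at 39.6 and 0.0993 CPM (log2 ratio -8.64), with reads in 11 of 32 OHCs and 3 of 67 cIHCs. One cIHC held 94.4% of the Stra6 reads in cIHCs, and without the top cells 3 counts remained there and the ratio was -12.39. Of 10 corticosteroid genes, 6 reached 10 CPM, with 1 higher and 1 lower, beside 26.3% and 14.3% of all genes. Sgk1, a kinase induced through both corticosteroid receptors, had 0 to 770.4 CPM (median 14.4) in OHCs and 65.3 to 2851 CPM (median 782) in cIHCs. The cIHC was the higher cell in 96.04% of pairs, and the pooled ratio was 3.60 (3.58 to 3.62). Hsd11b1, which regenerates active glucocorticoid, was lower at 189 and 18.3 CPM (log2 ratio -3.37), with reads in 23 of 32 OHCs and 9 of 67 cIHCs.

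Of 7 oxysterol response genes, 5 reached 10 CPM, of which 3 were higher and 0 lower, with a median log2 ratio of 2.65. Beside these few genes, 26.3% of all genes at that level were higher and 14.3% lower, and no test was made. Srebf1, a regulator of fatty acid synthesis, had 0 to 223 CPM (median 6.52) in OHCs and 6.25 to 512 CPM (median 168) in cIHCs. The cIHC was the higher cell in 92.4% of pairs, and the pooled 31.2 and 196 CPM gave 2.65 (2.62 to 2.68) on the log2 scale. Mylip, a ligase that leads to breakdown of the LDL receptor, was higher at 1.9004 and 69.3 CPM (log2 ratio 5.19), with 94.3% of its OHC reads in 1 cell and a ratio of 9.16 without the top cells. Abca1, a cholesterol exporter, was higher at 0.252 and 28.6 CPM (log2 ratio 6.83, interval 6.47 to 7.21), but 1 OHC held 93.4% of its OHC reads, and the ratio was 10.44 without the top cells. Abcg1 and Lpcat3 had ratios of 0.64 and 0.16. Of 12 genes of fatty acid use and PPAR response, 6 reached 10 CPM, with 3 higher and 1 lower, beside the same shares of all genes. Cpt1a, which admits fatty acids to mitochondria, had 0.223 and 25.8 CPM (log2 ratio 6.85, or 8.23 without the top cells), and Acadm, an enzyme of fatty acid oxidation, had 52.9 and 250.4 CPM (log2 ratio 2.24). Ehhadh, a peroxisomal enzyme, had 1 OHC count and 15.5 CPM in cIHCs (log2 ratio 11.87, interval 9.39 to 17.18), and without the top cells no OHC count remained. Fabp3, a fatty acid binding protein, was lower at 202 and 20.8 CPM (log2 ratio -3.28), and shares 9.84% of its exon bases with Zcchc17 on the other strand.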

How the data were processed

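The authors deposited 1 table of whole-number read counts per gene symbol and cell, and per the submitters' processing notes HISAT2 2.2.1, StringTie 2.2.1, featureCounts 2.0.1 and the build mm10 were used, with roles, annotation and strand setting not given in the sources used here. Libraries were made with the Smart-Seq HT kit, per the labels' protocols. Each of the 99 columns was matched to a cell by its title, 0 columns belonged to no sample and 0 pairs of columns were identical. All cells were used and summed per group, with no filter. Ratios, intervals (95%: exact Poisson, exact conditional binomial, exact Clopper-Pearson), a floor of 3 counts for sums of 0, and thinning were computed in Python 3.11.15 with numpy 2.4.6, pandas 2.3.3 and scipy 1.17.1, and TMM factors with edgeR 4.0.16 in R 4.3.3. A gene with at most 3 counts in both groups got no ratio. Of these steps, only the pooled ratios and the calls of higher or lower were tested on simulated counts. The simulation gave every gene the same spread between cells, so genes with most reads in 1 cell were not covered by it. Exon lengths and overlaps came from GENCODE M21 (mm10), and promoters from RefSeq. The receptors were taken as given, and the lists and rules were chosen with earlier results of these data known. Receptors past 2-fold with reads in at least 25% of cells of the higher group, the 5 highest per length, and those at 0 in 1 group were described in full, with up to 3 genes per list and direction; Per1, Per3, Cry2, Tef, Arntl, Clock, Ncor1, C1qb, Klf9, Abcg1 and Lpcat3 were added after their values were seen. Alternatives were other summaries, scalings, minimums and thresholds, thinning, dropping the top cell per gene, and cells with Xist or Y-linked reads only. The ratio relative to the all-gene median was added after seeing the data.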

Additional observations from a re-analysis of the deposited data

How the results depend on the processing

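No paired analysis was possible because replicate numbers are only cell tallies and no value has a test behind it. The count of 10 higher receptors became 6 when cell medians replaced pooled values, where 12 receptors had a value, 5 at a minimum of 50 CPM, 19 without a minimum and 5 at a log2 ratio of 2. The count of 5 lower receptors became 2, 2 and 2 with that median, the 50 CPM minimum and the log2 ratio of 2, and 3 without the highest cell of each gene, where Nr2c1 and Nr2f1 were lost. Leaving out those cells kept 9 of the 10 higher receptors, losing Nr4a1 and gaining Rxrb. Under that setting 34.96% of all genes were higher and 10.86% lower, against 26.3% and 14.3% with all cells. TMM, median-of-ratios scaling and thinning kept all 10 and all 5.

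The median log2 ratio of 0.34 became 0.15 under TMM, 0.14 under median-of-ratios scaling, 0.0888 relative to the all-gene median, 0.96 with the median of CPM per cell, 0.74 at a minimum of 1 CPM, 1.20 at 50 CPM, 1.22 without a minimum, 1.28 and 0.80 among cells with Xist and with Y-linked reads, 0.55 after thinning and 0.47 without the highest cells. Of the 15 called receptors, 4 turned: Thrb to -0.30, Rxrg to 2.47 and Nr2f1 to 0.0092 among cells with Xist reads, and Nr4a1 to -1.40 among cells with Y-linked reads; the cause was not tested, and only 4 OHCs had Xist reads. Thrb, Rxrg and Nr2f1 kept their direction among cells with Y-linked reads. Of the higher receptors, Nr4a1 and Nr4a2 were lost among cells with Y-linked reads. All genes moved as well: 40.71% were higher and 21.38% lower among cells with Xist reads, and 28.49% and 20.5% with Y-linked reads. With cell medians the shares were 44.57% and 9.575%, beside 26.3% and 14.3% of all genes by pooled CPM. For receptors without OHC reads, the exact 95% upper bound of 10.9% of OHCs treats each cell as independent. It leaves out the spread between animals, whose number is not given.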
